A study of Mus musculus with 4 samples.

Results

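The genes that sense oxygen and build the hypoxia-inducible factor (HIF) were examined in B16F10 mouse melanoma cells from 4 sources. The 7 genes were Egln1, Egln2, Vhl, Hif1an, Hif1a, Epas1 and Arnt, taken by symbol from a table of 24527 genes, and all 7 were found. The sources were a 2D monoculture of B16F10 cells, a 2D co-culture with NIH/3T3 mouse fibroblasts, spheroids of both lines grown in hanging drops, and tumors grown under the skin of both flanks of female C57BL/6 mice aged 1 year. All samples carry the genotype WT in their labels. In the study's methods, B16F10 cells with a green fluorescent protein were sorted from the cultures, and tumor cells are described as sorted too, whereas the label of the tumor library names snap-frozen tumor. How many cultures or mice went into a library is not given in the labels. The study's methods give a sample number for the RNA extraction, but not how it relates to the 1 library of each source. Each source is 1 library, so no difference between sources has a replicate check, no p-value is given, and all intervals below are 95% intervals of counting error only.

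HIF is a pair of proteins, an alpha subunit that oxygen makes unstable and a beta subunit that is always present. In the presence of oxygen, prolyl hydroxylases mark the alpha subunit, the VHL protein binds the mark, and a ubiquitin ligase sends the subunit to the proteasome. An asparagine hydroxylase, encoded by Hif1an, keeps the coactivators EP300 and CREBBP from binding the subunit that remains. HIF alpha is therefore governed mostly as a protein, and the read counts described here are those of its mRNA.

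Levels are given in CPM, the reads of a gene in 1000000 reads of its library, after scaling with TMM factors, which are computed so that most genes come out alike between libraries. The libraries held between 118896900 and 150028663 reads, and 3 reads, taken as the floor for a gene without a read, equal 0.0185 to 0.0262 CPM. All 7 genes lay above a mean of 1 CPM, a filter that 12728 genes passed. The 8 melanocyte markers summed to between 11420 CPM in spheroids and 20122 CPM in tumor. Tyrp1, Dct and Pmel were the highest of them in every library, and single markers went both ways. Against the 2D monoculture, 6 were higher and 2 lower in the tumor, and 2 were higher and 6 lower in spheroids. The tumor library also held transcripts of other cells: 10 endothelial markers summed to 322 CPM there and to between 1.68 and 4.79 CPM in the cultures, 10 myeloid markers to 1945 CPM against 10.1 to 29.95 CPM, 5 skeletal muscle markers to 4514 CPM against 2.42 to 8.31 CPM, and 4 adipocyte markers to 791 CPM against 0.674 to 1.28 CPM. The part of these cells in the levels of the 7 genes in the tumor was not tested. Summed levels of 9 fibroblast markers were 19.7 CPM for 2D monoculture, 683 CPM for 2D co-culture, 37.4 CPM for spheroids and 3194 CPM for the tumor. In these bulk samples, fewer cells of a type and less RNA per cell cannot be told apart.

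HIF dimers bind DNA at the short core words ACGTG and GCGTG, so the 250 bases before the transcription start of each member were searched for both words on both strands, with GRCm38.p6 sequences from RefSeq. An entry was matched for 6 members, and Epas1 was not matched. ACGTG stood in the windows of Egln1, Egln2 and Hif1a, and in 16.6% of all 32851 windows of that length. That percentage is not matched for GC content, which was 86.0% in the window of Egln1, 59.2% in that of Egln2 and 66.4% in that of Hif1a. The stretches of 30 bases around each ACGTG match are shown. Capitals mark the match.
Egln1, chr8:124949305-124949334, minus strand: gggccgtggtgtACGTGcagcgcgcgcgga
Egln2, chr7:27166833-27166862, minus strand: agcctcctgtcaACGTGcggttcgcgcacg
Hif1a, distal match, chr12:73907720-73907749, plus strand: cacacagacaagCACGTGagcggggcagct
Hif1a, proximal match, chr12:73907785-73907814, plus strand: tggctgagagcaACGTGggctggggtgggg
The match of Egln1 lay 68 to 64 bases upstream of the start and that of Egln2 48 to 44 bases upstream. The distal match of Hif1a is the palindrome CACGTG, which reads ACGTG on both strands. GCGTG stood in the windows of Egln1, Egln2 and Arnt and in 28.2% of all windows, and the windows of Vhl and Hif1an held neither word. Either word stood in 38.6% of all windows. A further RefSeq start of Egln2 had no ACGTG before it, and the starts of Egln1 and Hif1a in RefSeq lie inside the longer gene spans of GENCODE given below. A match is only a string of letters, and binding was not measured.

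Egln1 encodes PHD2, the main prolyl hydroxylase of HIF alpha, and lies on chromosome 8 (GRCm38, 124908587 to 124949324). It had 73.8 CPM in 2D monoculture (interval 72.4 to 75.2), 106 CPM in 2D co-culture (104 to 108), 146 CPM in spheroids (144 to 148) and 123 CPM in tumor (121 to 125). No intervals overlapped, and the 2D monoculture was lowest. With total count scaling the tumor, not the spheroid, was highest, at a log2 ratio of -0.11 for spheroid to tumor. The spheroid stood 1.97-fold above the 2D monoculture, a log2 ratio of 0.98 (interval 0.95 to 1.02). The tumor stood 1.67-fold and the 2D co-culture 1.44-fold above the same library. Of all genes, 11.9% had a ratio of spheroid to 2D monoculture as high as that of Egln1. The genes with the nearest pattern, by Euclidean distance of log2(CPM + 1) centred over the 4 libraries among 9587 other genes of at least 10 CPM on average, were Selenok (distance 0.072), 2610001J05Rik (0.101) and Sec61g (0.105).

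Egln2 encodes PHD1, the prolyl hydroxylase found mostly in the nucleus, and lies on chromosome 7 (27158658 to 27166802). It had 98.7 CPM in 2D monoculture (97.1 to 100.4), 124 CPM in 2D co-culture (122 to 126), 118 CPM in spheroids (116 to 120) and 61.4 CPM in tumor (60.2 to 62.6). The tumor was lowest, 1.61-fold under the 2D monoculture and 1.92-fold under the spheroid. Egln2 and Egln1 lay on opposite sides of the 2D monoculture in the tumor, but on the same side after the correction for GC content and length described below, at log2 ratios of 0.14 and 1.70. Its nearest patterns were those of Eif3g (0.016), Snf8 (0.030) and Flcn (0.032), and 253 genes lay within a distance of 0.25.

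Because both hydroxylases were read in the same library, their share of prolyl hydroxylase transcripts needs no scaling between libraries. Reads were divided by the length of all exons, and Egln3, which encodes PHD3 and is itself a classical HIF target, was added as the remaining family member. Egln1 made up 36.4% of the 3 genes in the 2D monoculture (35.8 to 37.0), 38.8% in the 2D co-culture (38.2 to 39.4), 45.6% in the spheroid (45.1 to 46.1) and 57.6% in the tumor (57.0 to 58.2). Egln2 made up 62.5% in the 2D monoculture, 57.9% in the 2D co-culture, 47.5% in the spheroid and 36.9% in the tumor. The order of both genes was thus opposite in the tumor and in the 2D cultures. Which of them led in the spheroid depends on the length used: the ratio of Egln1 to Egln2 there was 0.960 per kb of exon and 0.723 per kb of the longest transcript, while in undivided reads Egln1 had 52.0% of the 3 genes. Per kb of the longest transcript Egln1 had 51.4% in the tumor and 39.4% in the spheroid, and the order of the libraries was the same. Egln3 took 1.12% in the 2D monoculture, 3.29% in the 2D co-culture, 6.93% in the spheroid and 5.50% in the tumor.

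**Figure D1:**
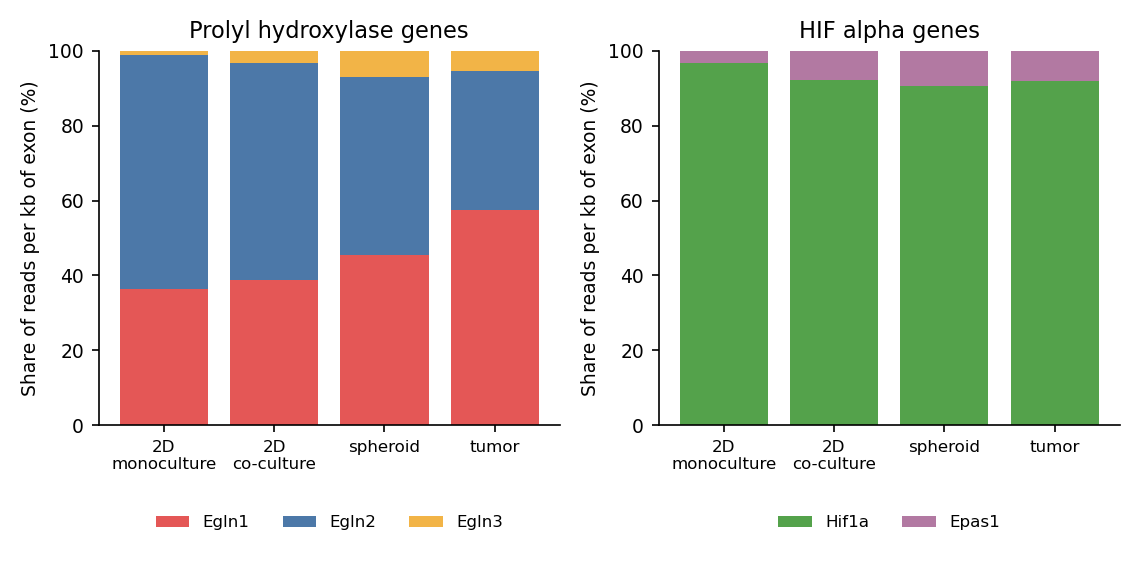
Stacked bars give the share of reads per kb of exon, in percent, of the 3 prolyl hydroxylase genes (left) and of the 2 HIF alpha genes (right) in each of the 4 libraries. The share of Egln1 was 36.4% in the 2D monoculture and 57.6% in the tumor, and Hif1a took at least 90.5% of the alpha subunits in every library.

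Vhl encodes the part of the ubiquitin ligase that recognises hydroxylated HIF alpha and lies on chromosome 6 (113623959 to 113631633). It had 35.4 CPM in 2D monoculture (34.4 to 36.4), 38.7 CPM in 2D co-culture (37.6 to 39.9), 59.2 CPM in spheroids (57.9 to 60.5) and 52.6 CPM in tumor (51.5 to 53.7). Both 2D cultures were low and both 3D sources high, the same order of libraries as for Egln1, and with total count scaling the tumor was again highest (-0.18 for spheroid to tumor). The spheroid stood 1.67-fold and the tumor 1.49-fold above the 2D monoculture, and the 2D co-culture 1.09-fold. Acer3 (0.081), Zfand6 (0.099) and Dnajc15 (0.105) had the nearest patterns. Egln1 and Vhl belong to the genes that the study selected on these libraries for a like level in spheroid and tumor, so their closeness in that comparison is not independent evidence. From that selection the study also removed genes with a like level in the 2D cultures. The difference of Egln1 and Vhl between the 2D cultures and the 3D sources is therefore not independent evidence either.

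Hif1an encodes FIH, the asparagine hydroxylase of HIF alpha, and lies on chromosome 19 (44562850 to 44576274). It had 75.6 CPM in 2D monoculture (74.1 to 77.0), 68.2 CPM in 2D co-culture (66.7 to 69.7), 61.5 CPM in spheroids (60.2 to 62.9) and 62.7 CPM in tumor (61.5 to 64.0). The intervals of spheroid and tumor overlapped, the only pair of neighbouring levels of any member for which they did. The highest and lowest levels of Hif1an differed 1.23-fold, the smallest range of the 7 genes. The nearest patterns were those of Gtf2h3 (0.056), Phf8 (0.070) and Pxylp1 (0.079).

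**Figure D2:**
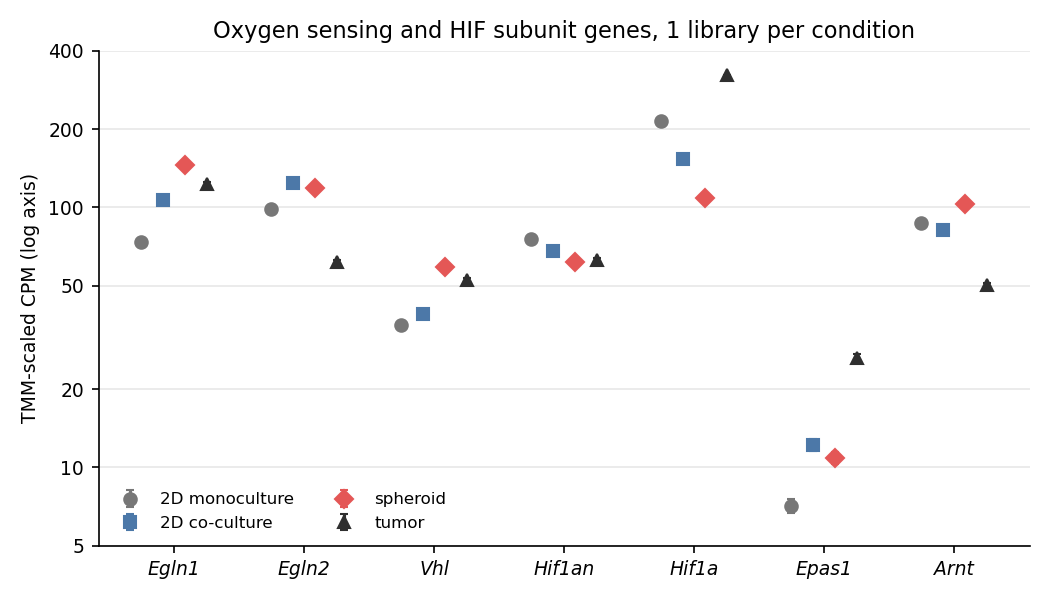
Points give the TMM-scaled CPM of the 7 genes on a log axis in each of the 4 libraries, with 95% counting intervals that are mostly smaller than the points. Egln1 and Vhl were lowest in the 2D monoculture and highest in the spheroid (with total count scaling, in the tumor), Hif1a was lowest in the spheroid (109 CPM) and highest in the tumor (321 CPM), and Epas1 was the gene of fewest reads in every library.

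Hif1a, the widely expressed alpha subunit, lies on chromosome 12 (73901375 to 73947530). It had 215 CPM in 2D monoculture (213 to 218), 153 CPM in 2D co-culture (151 to 156), 109 CPM in spheroids (107 to 111) and 321 CPM in tumor (319 to 324). Among the cultures the order was the reverse of that of Egln1, and the tumor stood above all of them. The reverse order did not hold after the correction for GC content and length described below. The log2 ratio of spheroid to 2D co-culture was then -0.11 for Egln1 and -0.17 for Hif1a. The spheroid was 1.98-fold under the 2D monoculture, a log2 ratio of -0.98 (interval -1.01 to -0.95), and 2.95-fold under the tumor, a log2 ratio of -1.56 (-1.59 to -1.53). The tumor was 1.49-fold above the 2D monoculture. Echdc1 (0.061), Nudcd1 (0.074) and Bhlhb9 (0.085) had the nearest patterns.

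The ratio of Egln1 to Hif1a within a library, per kb of exon, was 0.562 in the 2D monoculture, 1.14 in the 2D co-culture, 2.19 in the spheroid and 0.628 in the tumor. Per kb of the longest transcript it was 0.450, 0.911, 1.76 and 0.503. For Vhl to Hif1a, per kb of exon, the ratio was 1.07 in the spheroid and 0.322 in the tumor, against 0.323 in the 2D monoculture and 0.497 in the 2D co-culture. These ratios are not corrected for GC content. After the correction for GC content and length, the log2 ratio of spheroid to tumor was -1.32 for Egln1, -0.30 for Vhl and -0.39 for Hif1a, so that Egln1 was then lower relative to Hif1a in the spheroid than in the tumor.

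Epas1 encodes HIF-2 alpha, an alpha subunit best known from endothelial cells, and lies on chromosome 17 (86753700 to 86833410). It had 7.09 CPM in 2D monoculture (6.66 to 7.54), 12.2 CPM in 2D co-culture (11.6 to 12.9), 10.9 CPM in spheroids (10.3 to 11.5) and 26.4 CPM in tumor (25.6 to 27.2). The tumor was the highest, 3.73-fold above the 2D monoculture, a log2 ratio of 1.90 (interval 1.80 to 2.00), the largest of the 7 genes. The 2D co-culture and the spheroid lay between, the 2D co-culture 1.73-fold and the spheroid 1.54-fold above the 2D monoculture. Beside it, all 10 endothelial markers were more than 2-fold higher in the tumor than in the 2D monoculture (14.8% of all genes were), led by Pecam1 with 99.4 CPM, Cdh5 with 64.2 CPM and Kdr with 29.5 CPM. No endothelial marker was at 0 in a culture, and Pecam1 had 0.147 to 0.236 CPM there. Vwf, named after its values were seen, was the highest of them in the cultures, with 2.77 CPM in 2D monoculture, 0.821 CPM in 2D co-culture and 4.15 CPM in spheroids, against 15.95 CPM in tumor. The part of endothelial cells in the Epas1 levels was not tested. Fibroblast markers were also higher in 2D co-culture, where Col1a2 had 514 CPM against 2.97 CPM in 2D monoculture. In spheroids Col1a2 had 4.05 CPM, and of the 9 fibroblast markers 5 were higher and 4 lower there than in 2D monoculture. The part of fibroblasts in the Epas1 levels of both libraries was not tested.

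Per kb of exon, Hif1a made up 96.6% of both alpha subunits in the 2D monoculture (96.4 to 96.8), 92.2% in the 2D co-culture (91.8 to 92.6), 90.5% in the spheroid (90.01 to 90.9) and 92.0% in the tumor (91.8 to 92.2). The 2D monoculture stood apart, and the intervals of the 2D co-culture and the tumor overlapped. These shares are not corrected for GC content. After the correction for GC content and length, the log2 ratio of 2D co-culture to tumor was -0.40 for Hif1a and -1.59 for Epas1. For spheroid to tumor it was -0.39 and -1.51. Hif1a was then higher relative to Epas1 in the 2D co-culture and the spheroid than in the tumor. Epas1 had few near patterns, with Rap1a (0.161), Ehd2 (0.194) and Wbp5 (0.215) the closest and 5 genes within a distance of 0.25.

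Arnt encodes HIF-1 beta, the partner of both alpha subunits, and lies on chromosome 3 (95434388 to 95497240). It had 86.8 CPM in 2D monoculture (85.3 to 88.4), 81.7 CPM in 2D co-culture (80.0 to 83.4), 103 CPM in spheroids (101 to 105) and 50.1 CPM in tumor (49.0 to 51.2). The spheroid was highest and the tumor lowest, 2.06-fold apart, a log2 ratio of 1.04 (interval 1.001 to 1.08). With 1 CPM added, this ratio was 0.67 with total count scaling and 0.90 with upper quartile scaling. Nosip (0.065), Aff3 (0.075) and Bphl (0.083) had the nearest patterns. Per kb of exon, Hif1a exceeded Arnt 3.37-fold in the 2D monoculture, 2.55-fold in the 2D co-culture, 1.44-fold in the spheroid and 8.71-fold in the tumor. Per kb of the longest transcript these ratios were 2.27, 1.72, 0.969 and 5.87, so that the order of both genes in the spheroid depends on the length used, and the order of the libraries does not.

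A gene was counted as different when its log2 ratio, with 1 CPM added to each level, passed 2-fold. Between spheroid and 2D monoculture, 0 of the 7 genes passed it, where 29.1% of all genes did (11.2% higher and 17.9% lower in the spheroid), although Egln1 and Hif1a lay just inside with log2 ratios of 0.97 and -0.98. Between 2D co-culture and 2D monoculture 0 of 7 passed (13.3% of all genes, 3.79% higher and 9.51% lower), and between spheroid and 2D co-culture 0 of 7 (18%, 9.54% higher and 8.46% lower). Between tumor and 2D monoculture 1 of 7 passed, Epas1, which was higher in the tumor (33.1% of all genes, 14.8% higher and 18.2% lower). Between spheroid and tumor 3 of 7 passed, Hif1a and Epas1 lower in the spheroid and Arnt higher (54.4% of all genes, 26.8% higher and 27.6% lower). Between 2D co-culture and tumor 2 of 7 passed, Hif1a and Epas1, both lower in the co-culture (39.7% of all genes, 18.8% higher and 20.9% lower). Egln2 lay just under the threshold in this comparison, 2.01-fold higher in the 2D co-culture with nothing added. In none of these comparisons was the share of members above that of all genes. The comparisons share libraries and are not independent of each other.

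**Figure D3:**
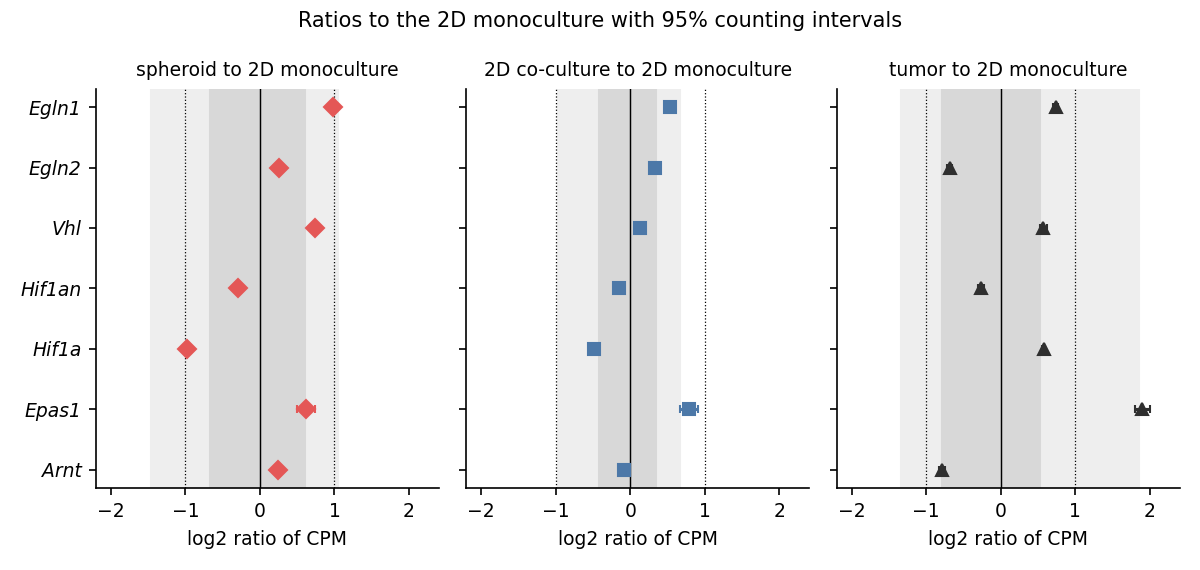
Points give the log2 ratio of each gene to the 2D monoculture, with nothing added and with 95% counting intervals, for the spheroid, the 2D co-culture and the tumor, and the dark and light bands hold the middle 50% and 80% of all genes, computed with 1 CPM added, and dotted lines mark 2-fold. Epas1 in the tumor, at 1.90, is the only point past a dotted line.

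The median log2 ratio of the 7 genes was 0.26 for spheroid to 2D monoculture, against 0.05 for all genes. It was 0.13 against 0.01 for 2D co-culture to 2D monoculture, 0.56 against -0.14 for tumor to 2D monoculture, -0.06 against -0.01 for spheroid to 2D co-culture, 0.17 against 0.08 for spheroid to tumor and -0.21 against 0.11 for 2D co-culture to tumor. For spheroid to tumor the sign of the members' median turned with total count scaling, to -0.18. In every comparison, members lay on both sides of 0.

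The ratios between libraries followed the GC content of transcripts across all genes, with a Spearman correlation over 12466 genes of 0.464 for spheroid to 2D monoculture, -0.381 for tumor to 2D monoculture and 0.525 for spheroid to tumor. These genes share the libraries and are not independent. The members cover most of the range, with 41.3% GC in Hif1a, 47.9% in Arnt, 49.9% in Vhl, 51.5% in Hif1an, 52.5% in Epas1, 56.0% in Egln1 and 62.2% in Egln2. When each member was set against the median of genes in its own class of GC content and transcript length, with 1 CPM added, several values moved. For Egln1 the log2 ratio went from 0.97 to 0.27 for spheroid to 2D monoculture, from 0.73 to 1.70 for tumor to 2D monoculture, and from 0.24 to -1.32 for spheroid to tumor. Its class, of 116 genes, had a median of 1.56 in the last comparison. For spheroid to 2D co-culture the ratio of Egln1 turned from 0.45 to -0.11. Egln2 went from 0.93 to -0.60 for spheroid to tumor and from -0.68 to 0.14 for tumor to 2D monoculture. Hif1a went from -0.98 to -0.36 for spheroid to 2D monoculture and from -1.55 to -0.39 for spheroid to tumor, with its direction unaltered. Hif1an turned from -0.29 to 0.07 for spheroid to 2D monoculture and from -0.26 to 0.52 for tumor to 2D monoculture. Vhl went from 0.73 to 0.59 for spheroid to 2D monoculture and turned from 0.17 to -0.30 for spheroid to tumor. Epas1 and Arnt kept their directions in spheroid to tumor, at -1.51 and 1.25. The part of GC content in these differences was not tested.

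**Figure D4:**
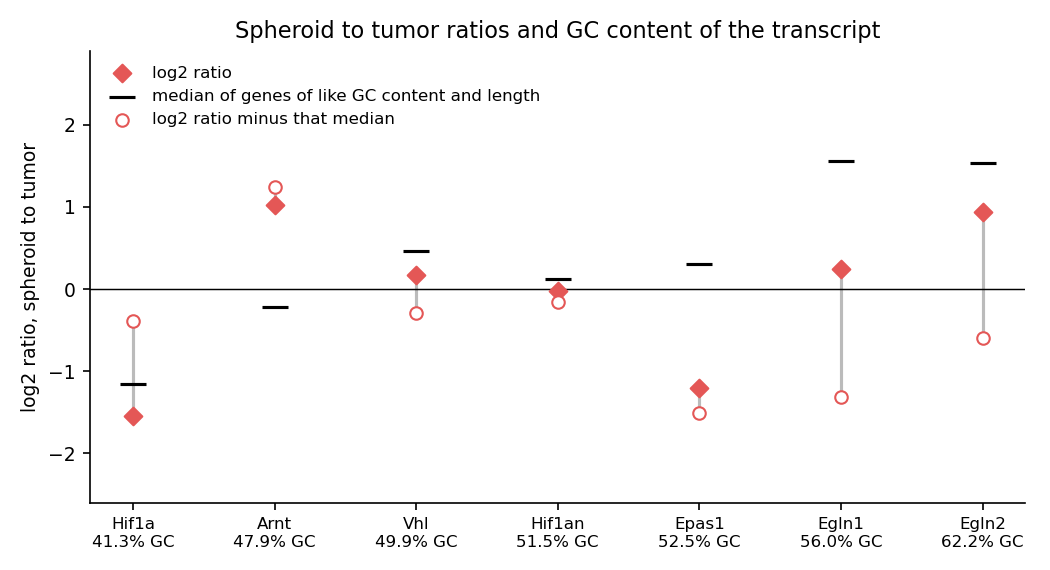
For spheroid to tumor, filled diamonds give the log2 ratio of each gene with 1 CPM added, black bars the median of genes of like GC content and length, and open circles the difference of both, with genes ordered by the GC content of their longest transcript. Egln1, Egln2 and Vhl lay above 0 and moved to -1.32, -0.60 and -0.30, while Hif1a, Epas1 and Arnt stayed on their side of 0.

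Other genes of the pathway were read from lists. Of 5 further family genes, of which 2 had a mean of at least 1 CPM, Egln3 was over 2-fold higher in the spheroid than in the 2D monoculture and Arnt2 lower (11.2% and 17.9% of all genes), the latter not with upper quartile scaling or 5 CPM added. Arnt2 was under that mean, with 1.32 CPM in 2D monoculture and 0.110 CPM in spheroids. The percentages are over genes that passed it, so they are not a like background for Arnt2. Egln3 had 1.68 CPM in 2D monoculture, 6.67 CPM in 2D co-culture, 16.4 CPM in spheroids and 8.70 CPM in tumor. The spheroid was thus 9.78-fold above the 2D monoculture, a log2 ratio of 3.29 (interval 3.10 to 3.49). Hif3a, an inhibitory alpha subunit, stayed at or under 0.533 CPM in every library, and Arnt2 at or under 1.32 CPM.

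The VHL protein acts with elongins B and C (Elob, Eloc), cullin 2 (Cul2) and the RING protein Rbx1. These 4 genes and 4 regulators made a list of 8, of which 2 were over 2-fold higher and 1 lower in the spheroid than in the 2D monoculture (11.2% and 17.9% of all genes). The higher ones were Siah1a and Siah2, ubiquitin ligases that act on prolyl hydroxylases. Siah2 had 18.0 CPM in 2D monoculture, 33.7 CPM in 2D co-culture, 70.8 CPM in spheroids and 13.5 CPM in tumor. The lower one was Cul2, with 52.0 CPM in 2D monoculture and 25.3 CPM in spheroids, and it was inside 2-fold with DESeq2 or upper quartile scaling, with 5 CPM added and after the GC and length correction. With total counts or 5 CPM added, 1 gene of the list was over 2-fold higher. Siah1a, with 16.5 CPM in 2D monoculture and 36.2 CPM in spheroids, has a near copy, Siah1b, with which it may share reads. Siah1b was lower in the spheroid, with 9.62 CPM in 2D monoculture, 20.1 CPM in 2D co-culture, 7.23 CPM in spheroids and 9.71 CPM in tumor. The part of shared reads in the Siah1a difference was not tested. Elob and Eloc were 1.69-fold and 1.64-fold higher in the spheroid, near the 1.67-fold of Vhl, while Rbx1 differed 1.09-fold. The likeness to Vhl was not general. Elob had 153 CPM in 2D monoculture and 158 CPM in tumor, where Vhl was 1.49-fold higher. Eloc had 120 CPM in 2D monoculture and 193 CPM in 2D co-culture, where Vhl was 1.09-fold higher. The median log2 ratio of the list, spheroid to 2D monoculture, went from 0.52 to 0.11 with the GC and length correction.

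Among 6 coactivators and CITED proteins, the latter competitors or partners of HIF for EP300 and CREBBP, 4 were over 2-fold lower in the tumor than in the 2D monoculture and 0 higher (18.2% and 14.8% of all genes). With total count or upper quartile scaling or 5 CPM added 1 was lower, and after the correction for GC content and length 0 of the 5 with a value. Ep300 had 107 CPM in 2D monoculture, 68.9 CPM in 2D co-culture, 43.9 CPM in spheroids and 38.6 CPM in tumor. Cited2, an inhibitor that HIF induces, had 175, 235, 254 and 86.5 CPM in the same order. Like Egln1 and Vhl, Ep300 was selected by the study on these libraries for a like level in spheroid and tumor. The closeness of Ep300 in that comparison, and its difference from the 2D cultures, are therefore not independent evidence.

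HIF is known to induce genes of oxygen supply, glycolysis and its own control, and 18 such target genes were read, Egln3 among them. In the spheroid, 10 were over 2-fold higher than in 2D monoculture and 1 lower (11.2% and 17.9% of all genes), with a median log2 ratio of 1.07. In the tumor, 8 were higher and 0 lower (14.8% and 18.2%), with a median of 0.66, and in the 2D co-culture 1 was higher and 1 lower (3.79% and 9.51%), with a median of 0.38. Across 6 other settings the higher genes numbered 8 to 11 for the spheroid, 8 to 10 for the tumor and 0 to 1 for the 2D co-culture. Car9, a carbonic anhydrase and marker of hypoxia, had 10.1 CPM in 2D monoculture, 18.3 CPM in 2D co-culture, 65.2 CPM in spheroids and 175 CPM in tumor. Vegfa, the vessel growth factor, was highest in the spheroid, at 453 CPM. Kdm3a, a histone demethylase, was the lower gene, with 85.1 CPM in 2D monoculture, 39.0 CPM in 2D co-culture, 18.6 CPM in spheroids and 115 CPM in tumor, an order of libraries like that of Hif1a.

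**Figure D5:**
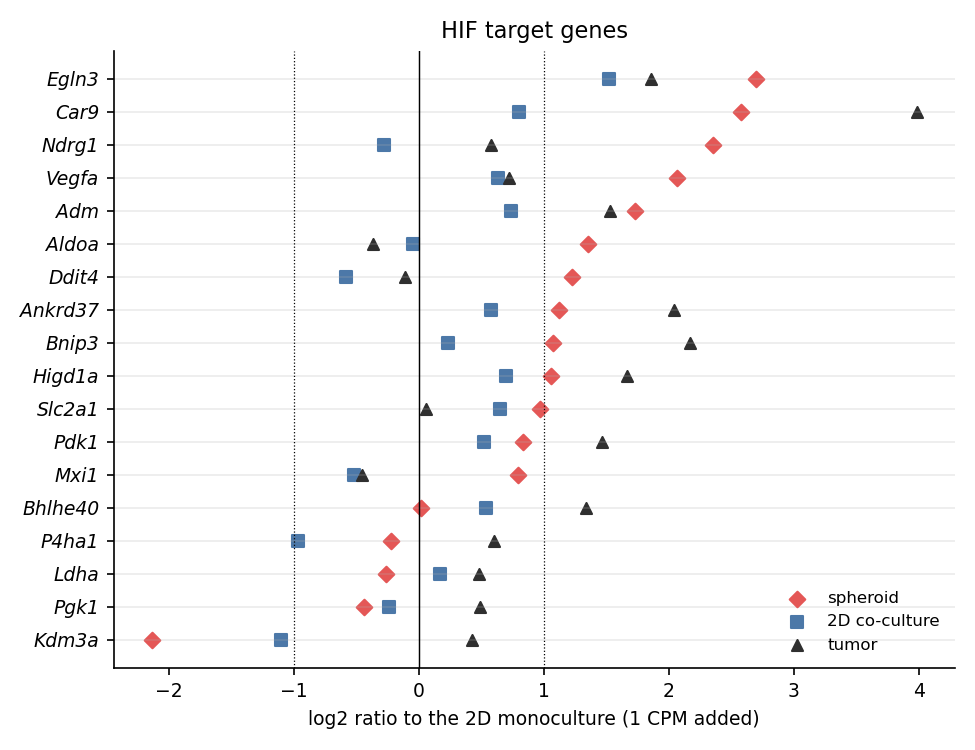
Each row is 1 of 18 HIF target genes, ordered by the spheroid, and each point its log2 ratio to the 2D monoculture with 1 CPM added, with dotted lines at 2-fold. In the spheroid 10 genes lay past the upper line and Kdm3a past the lower one.

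Prolyl hydroxylases use 2-oxoglutarate, oxygen and iron, and succinate and fumarate inhibit them. Of 7 genes that supply or clear these compounds, 1 was over 2-fold higher and 2 lower in the spheroid than in 2D monoculture (11.2% and 17.9% of all genes). The lower ones were Tfrc, the receptor for iron-laden transferrin, with 203 and 43.2 CPM in 2D monoculture and spheroid, and Fh1, fumarate hydratase, with 114 and 42.7 CPM. The higher one was Slc11a2, an iron transporter, with 159 and 344 CPM. In this comparison 0 genes of the list were over 2-fold higher and 3 lower with total counts. With the GC and length correction 1 was higher and 3 were lower. In the tumor Tfrc and Idh1, an isocitrate dehydrogenase that yields 2-oxoglutarate, were the 2 genes over 2-fold higher than in 2D monoculture, with 434 and 164 CPM (14.8% of all genes). After the GC and length correction 1 gene of the list was.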

How the data were processed

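RNA of 4 libraries, 1 per condition, was sequenced from poly(A)-selected RNA as paired reads, with a kit for which no strand setting is given. The authors deposited whole-number read counts per gene symbol, without normalization. Per the labels, Trimmomatic, STAR and featureCounts and the build mm10 were used, with versions and settings not given in the sources used here. Without strand, reads of overlapping genes cannot be told apart: in the GENCODE annotation of GRCm38, the same build, 330 exon bases of Hif1a (5.60%) overlap the antisense gene Gm15283, 148 (2.51%) overlap Gm49321, and 11 of Egln2 (0.39%) overlap Cyp2t4.

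CPM values used TMM factors of edgeR 4.0.16 (R 4.3.3). Intervals of CPM are exact (Clopper-Pearson), and those of a log2 ratio were derived by treating the reads of both libraries as a binomial share. Ratios of single genes have nothing added unless stated, and counts and medians have 1 CPM added. The GC and length correction subtracts from a gene the median of its class, of 10 by 10 classes, and 97.9% of genes had a value. DESeq2 1.42.0 (size factors only), numpy 2.4.6, pandas 2.3.3 and scipy 1.17.1 were used. Ratios and intervals were tested on simulated data that held counting error only. That simulation had no variation between cultures or library preparations, so it cannot show how far such variation would move a ratio. Members and lists were chosen with earlier results of these data known. The genes named are the members, genes of the fixed lists, the 3 leading markers of a cell type and the 3 genes nearest to each member.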

Additional observations from a re-analysis of the deposited data

How the results depend on the processing

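No paired analysis was possible because no condition was sequenced more than once, and for the same reason no replicate could be left out. Medians of the 7 genes were taken as alike within 1.5-fold, which held under every setting run, and counts within 1.5 times. The sign of the median turned in spheroid to tumor, from 0.17 to -0.18 with total counts and -0.39 with the GC and length correction, and in no other comparison. The scaling on the 3 cultures alone, the percentages over genes with at least 1 CPM in the 2D monoculture and the ratios within a library per longest transcript were chosen after seeing the data. Of 42 ratios of members, the direction turned for 3 with total counts, 2 with upper quartile factors, 12 with the GC and length correction and 0 with DESeq2 factors or other pseudocounts. The log2 ratios of all genes shifted by a median of 0.24 with upper quartile factors and 0.23 with total counts for tumor to 2D monoculture, and of -0.34 with total counts for spheroid to tumor, where Egln1 and Vhl turned to -0.11 and -0.18.

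Members over 2-fold between spheroid and 2D monoculture numbered 1 with total counts (Hif1a), with DESeq2 factors and with upper quartile factors (Egln1 in both), because both genes lie next to the threshold, and 0 with TMM factors of the 3 cultures. Between tumor and 2D monoculture they numbered 2 with the GC and length correction (Egln1 and Epas1), which in spheroid to tumor and 2D co-culture to tumor left the number as it was with Egln1 past the threshold in place of Hif1a. They numbered 1 between spheroid and tumor with 5 CPM added, and between 2D co-culture and tumor 1 with 5 CPM added. Arnt was not past 2-fold between spheroid and tumor with total counts, at 0.67, or upper quartile factors, at 0.90. With total counts, 36.7% of all genes past 2-fold between spheroid and tumor were higher in the spheroid, against 49.2% with TMM factors, 32.6% against 47.3% were higher for 2D co-culture to tumor, and 59.9% against 44.8% for tumor to 2D monoculture. Upper quartile factors gave 60.5% for tumor to 2D monoculture and the GC and length correction 72.5%, the latter also 31.2% for 2D co-culture to tumor. Upper quartile factors gave 39.0% against 28.5% for 2D co-culture to 2D monoculture.

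Per kb of the longest transcript, the share of Egln1 was 30.2% in the 2D monoculture, 32.6% in the 2D co-culture, 39.4% in the spheroid and 51.4% in the tumor, and that of Hif1a 97.3%, 93.6%, 92.1% and 93.4%. In undivided reads the share of Egln1 was 42.4%, 44.9%, 52.0% and 63.7% in the same order, and that of Hif1a in the tumor 92.4%. Depth did not limit the members, whose lowest count was 1010 reads, that of Epas1 in the 2D monoculture.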
